A study of Macaca fascicularis with 80 samples.

Results

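Whole blood drawn 4 days after the second dose of IL-15/IL-15Ra was compared with blood drawn from the same animals before any dose. The comparison holds 16 of the 80 libraries of the study, namely all libraries whose names carry day 7 or day 0, 8 of each, paired by the animal number in the name. The animals were 8 cynomolgus macaques (Macaca fascicularis), 4 female and 4 male. Day 0 blood is labelled as control with a dose of 0 µg/kg. Day 7 blood is labelled with 10 µg/kg, and by then each animal had received its initial 5 µg/kg (day 0) followed by 10 µg/kg (day 3). The third dose of 15 µg/kg was also given on day 7, and the day 7 sample was read as taken before it because its label carries the preceding dose. No undosed animals were analysed here, so dose, repeated bleeding and elapsed time cannot be told apart. Blood was collected in PAXgene tubes. The labels name neither strain nor age.

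Interleukin 15 is a cytokine that is normally shown to neighbouring cells on its receptor alpha chain. The complex of both acts on cells that carry the shared beta and gamma chains of the receptor, mainly natural killer cells and memory CD8 T cells, which respond by dividing and arming their killing machinery. Cells of this kind can also leave the circulation for tissues after stimulation and return later, so the RNA of whole blood reflects both which cells are present and what they express. In such bulk samples, fewer cells of a type and less RNA per cell cannot be told apart. Genes appear in the files by identifier alone, and 0 identifiers of either deposited table matched the gene table used for names. Cell type markers, pathways and sequences of the genes were therefore not analysed here, and 4 identifiers are given, a pair from each direction.

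The 16 libraries held 18.1 to 51.4 M counts (M, mega). All but the day 7 library of animal 39097 were at or under 30.3 M. The day 7 library of animal 39095 carries another library tag than the other 15. The number of genes at 1 CPM (counts-per-million) or more was 12348 to 12592 on day 0 and 12202 to 12834 on day 7.

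By day 7, 1136 genes had risen and 1154 had fallen, together 2290 of the 16054 genes tested. This is 14.3% of the genes tested, 7.08% higher and 7.19% lower, at an adjusted p under 0.05 in edgeR's quasi-likelihood test with animal as a block. Most changes were modest. The median log2 fold change was 0.52 among the risen genes (quartiles 0.38 and 0.79) and -0.58 among the fallen ones (quartiles -0.93 and -0.39), against 0.018 over all genes. Changes over 2-fold were seen in 189 of the risen genes (16.6%) and in 22.2% of the fallen ones. Changes over 4-fold were seen in 49 and 56, and 98 of these 105 had a mean level under 2 log2 CPM, where few counts make a fold change imprecise. The count of 2290 was 622 without the animal block, and it was 1217 without animal 39098, 1382 without 39104 and 1506 without 39100. Of those 622 genes, all were also among the 2290, in the same direction.

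**Figure D1:**
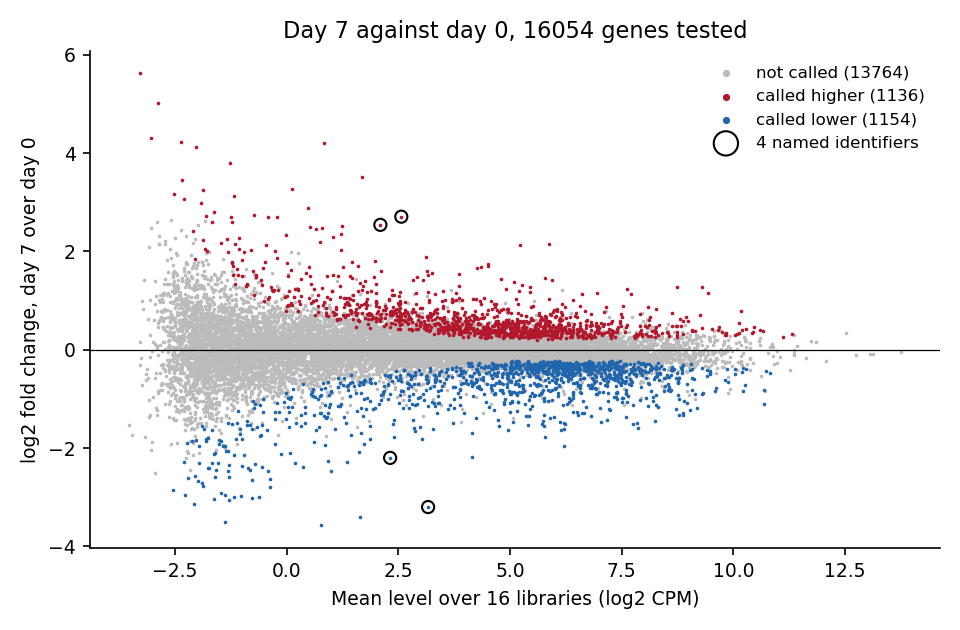
Each point is 1 of the 16054 genes tested, with its mean level over the 16 libraries in log2 CPM on the x axis and its log2 fold change of day 7 over day 0 on the y axis. Called genes (1136 higher in red, 1154 lower in blue) lie on both sides of 0 at nearly every level, folds over 4-fold sit mostly at low levels, and circles mark the 4 named identifiers.

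Among the called genes, direction was shared widely between animals, which a call made on these same 8 animals favours. All 8 animals were above their own day 0 for 693 of the 1136 risen genes, and 7 of 8 were for another 396. Among the 1154 fallen genes, 664 were lower in all 8 animals and 424 in 7 of 8. The fewest animals in the called direction were 3 of 8 for a risen gene and 6 of 8 for a fallen one. Over all genes tested, 5.42% were higher and 5% lower in 8 of 8 animals. A stricter demand, that all 8 day 7 libraries lie above all 8 day 0 libraries, was met by 85 genes (0.529% of those tested), and 48 genes (0.299%) lay wholly below. All genes of both kinds were among those called.

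ENSMFAG00000033092 rose the most under the naming rule, which asks for a call, a mean of at least 2 log2 CPM and 1 direction in all 8 animals. Its level on day 0 ran from 0.368 CPM in animal 39103 over a median of 2.07 to 9.4 in animal 39100. On day 7 it ran from 4.17 CPM in animal 39098 over a median of 15.7 to 57.4 in animal 39095. The 2 days overlapped, because the day 0 level of animal 39100 and that of 39102 (6.05) exceeded the day 7 levels of 39098 and 39103 (4.48), yet every animal was above its own start. The fitted change was 6.53-fold, or 2.71 on the log2 scale (SE 0.32, adjusted p = 0.000846).

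ENSMFAG00000004963 showed the next largest rise. It ran from 0.551 to 4.14 CPM on day 0 (median 1.74) and from 3.82 to 23.6 CPM on day 7 (median 10.8). Only the day 0 level of animal 39104 exceeded the lowest day 7 level, that of 39103. The rise was 5.83-fold, or 2.54 on the log2 scale (SE 0.37, adjusted p = 0.00201), with log2 changes per animal from 0.55 in 39104 to 4.53 in 39095. Without 39095, the animal with the other day 7 tag, the fitted change was 2.27.

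ENSMFAG00000020302 fell the most among the genes that met the same rule. On day 0 its level was 3.32 CPM in animal 39097, a median of 32.5 over the 8 animals and 107 in animal 39098. On day 7 it was 0.649 CPM at the lowest, 2.88 at the median and 16.1 at the highest, again in 39098. Animals thus kept wide differences among themselves on both days, and the days overlapped, while each animal fell below its own start. The fold change was 9.18-fold lower on day 7 (log2 -3.20, SE 0.36, adjusted p = 0.000693). Log2 changes ran from -1.39 to -2.73 in females and from -4.00 to -4.97 in males, without overlap. The test of this difference between the sexes gave -2.12 (SE 0.33, males minus females), with an adjusted p = 0.23 over all genes, so it did not pass the threshold.

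ENSMFAG00000037103 fell 4.59-fold (log2 -2.20, SE 0.35, adjusted p = 0.00273). Its day 0 levels lay apart, at 3.14, 3.81 and 4.24 CPM in males 39102, 39103 and 39100 and at 16.2 to 23.8 CPM in the other 5 animals. On day 7 all 8 animals stood between 1.71 and 3.45 CPM. Animals with a high start therefore changed by -2.44 to -3.14 on the log2 scale, and the 3 with a low start by -0.11 to -1.28. Only animal 39102, at 3.14 CPM on day 0, started within the day 7 range.

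**Figure D2:**
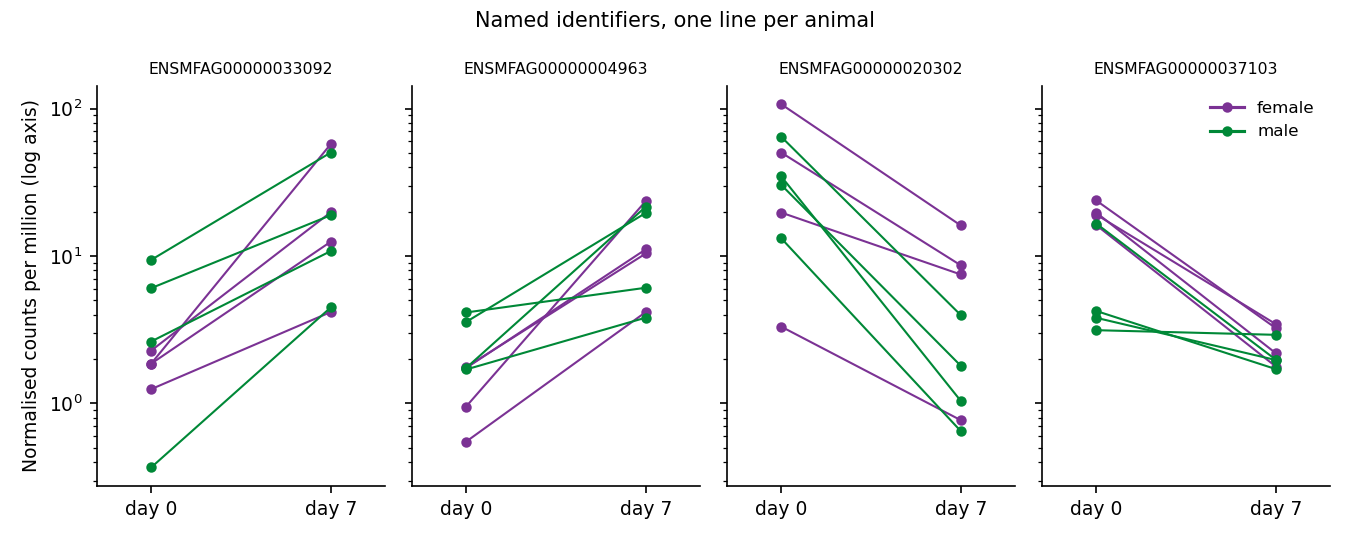
Normalised CPM (log axis) of the 4 named identifiers on day 0 and day 7, with 1 line for each animal, purple for females and green for males. Every line of the first 2 panels goes up and every line of the last 2 goes down, and the day 7 levels of ENSMFAG00000037103 draw together between 1.71 and 3.45 CPM.

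Against day 0, these 4 identifiers kept their direction and their call in edgeR, DESeq2 and limma voom, without the animal block and without any 1 animal. The naming rule, which asks for a call and 1 direction in all 8 animals, favours this. Day 7 chose these identifiers, which also favours a change in the same direction from day 3 to day 7. ENSMFAG00000033092 started at 1.21 ± 1.3 log2 CPM (SD, n = 8). It stood at 0.08 ± 0.99 a day after the first dose, at 1.51 ± 1.4 when day 3 came and at 3.93 ± 1.4 by day 7. It was at 2.37 ± 1.0 on day 8, 24 h after the third dose, and at 4.25 ± 1.3 on day 10. From day 3 to day 7 it rose by 2.44 (SE 0.34, adjusted p = 0.0093, edgeR), a call lost without the animal block (adjusted p = 0.24) and without animal 39102 (0.053). Between day 7 and day 10 the fitted difference was 0.32 (SE 0.20, adjusted p = 0.58).

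ENSMFAG00000004963 had a similar order of levels over the days. It started at 0.84 ± 0.89 log2 CPM and was at 1.53 ± 0.41 by day 3. It stood at 0.78 ± 0.52 on day 4, below day 3, and at 3.36 ± 1.0 by day 7. It was at 1.69 ± 0.68 on day 8 and 3.34 ± 1.0 on day 10. The rise from day 3 to day 7 was 1.88 (SE 0.24, adjusted p = 0.0072, and 0.057 without the animal block), and the difference between days 7 and 10 was -0.01 (SE 0.12, adjusted p = 0.98).

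Both fallen identifiers were below day 0 in 8 of 8 animals by day 4, and ENSMFAG00000037103 was in 5 of 8 on days 1 and 3. ENSMFAG00000020302 was below day 0 in 8 of 8 animals on each of the 9 later days, with 3.79 ± 1.7 log2 CPM a day after the first dose, 2.70 ± 1.9 when day 3 came and 1.55 ± 1.7 by day 7. Its further fall from day 3 to day 7 was 1.21 on the log2 scale (SE 0.22, adjusted p = 0.034). That call was lost in 10 of the 19 alternatives, with an adjusted p of 0.87 without the animal block and of 0.052 to 0.13 when 39090, 39097, 39098, 39100, 39102 or 39104 was left out. ENSMFAG00000037103 was at 3.29 ± 0.35 on day 1 and at 2.68 ± 0.59 by day 3, then at 1.85 ± 0.49 a day after the second dose and at 1.26 ± 0.39 by day 7. It fell by 1.45 from day 3 to day 7 (SE 0.17, adjusted p = 0.0072, and 0.057 without the animal block). By day 21 it stood at -0.22 ± 0.63 and had fallen by another 1.53 since day 7 (SE 0.26, adjusted p = 0.028). This last call was lost without the animal block (adjusted p = 0.20) and without animal 39090 (0.10), 39097 (0.078) or 39102 (0.066).

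Risen and fallen genes differed in how abundant their counts were. Genes were split into quintiles by mean log2 CPM, which is not corrected for gene length. In the most abundant quintile (5.93 to 13.8 log2 CPM), 516 of 3211 genes fell (16.1%) and 7.97% rose. The median change of all genes in it was -0.07. In the middle quintile (2.40 to 4.36 log2 CPM) the order was the opposite, with 298 genes risen (9.28%) and 154 fallen (4.8%). The least abundant quintile held 58 risen and 81 fallen genes, 1.81% and 2.52%. Precision differed with level, since the median SE of a log2 fold change was 0.53 in the lowest quintile and 0.094 in the highest. The median change of called genes went the same way, at 2.05 in the lowest quintile and 0.44 in the highest, regardless of sign. The excess of falls in the most abundant quintile was present under each scaling, with 460 falls and 302 rises when only library totals were used.

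**Figure D3:**
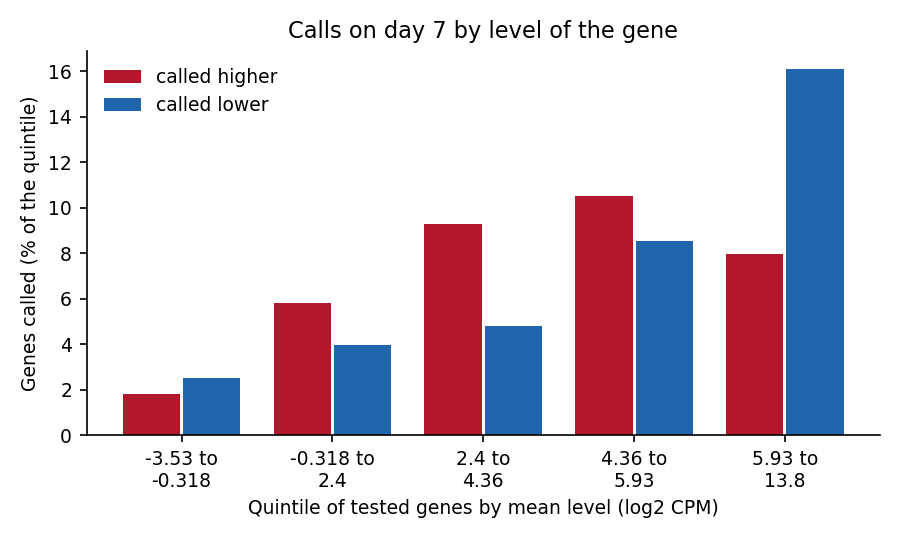
Bars give the percentage of genes called higher (red) and lower (blue) on day 7 in each quintile of the tested genes, ordered by mean log2 CPM on the x axis. Falls exceed rises in the highest quintile (16.1% against 7.97%), while rises exceed falls in the 3 middle quintiles.

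The share of counts taken by the most abundant genes did not differ between the days beyond the spread of its change. The 10 most abundant genes of day 0 made up 6.65% ± 0.50 (SD, n = 8) of counts on day 0 and 6.87% ± 0.74 on day 7, with 4 of 8 animals higher (exact two-sided sign-flip permutation test, p = 0.359; smallest possible 0.00781). None of these 10 genes was called by edgeR. The 100 most abundant took 20.5% ± 1.2 and 20.3% ± 2.1 (exact permutation p = 0.664). Of these 100 genes, 12 rose and 16 fell, against 7.08% and 7.19% of all genes tested. In the most abundant quintile 7.97% rose and 16.1% fell, so the share of falls was near that of abundant genes. The 1000 most abundant took 56.6% ± 2.3 and 55.2% ± 3.2, with 2 of 8 animals higher (exact permutation p = 0.141).

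Animals differed in the size of their log2 changes and in how closely they followed the others. The root mean square of the log2 changes over all 16054 genes was lowest in animal 39097 (0.655) and highest in 39103 (0.933). It includes counting noise, since the median SE was 0.53 in the least abundant quintile. Its median over the animals was 0.694 on day 1 and 0.773 on day 7. The deepest day 7 library was that of 39097 (51.4 M counts), and that of 39103 had the fewest genes at 1 CPM or more (12202). Log2 changes of different animals, which share no libraries, correlated across genes at r = -0.03 to 0.45 over the 28 pairs of animals (median 0.24). Animal 39103 had the lowest median correlation with the other 7, 0.085, against 0.20 to 0.29 for each of the others. Genes are not independent replicates, and these values describe the libraries.

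For each animal, genes were then called in the other 7 and measured in the animal left out. These sets differed between animals and held 608 to 1304 risen and 609 to 1487 fallen genes, fewest for 39098 and most for 39103. The risen genes were above day 0 in every animal left out, at a mean log2 change of 0.58 ± 0.15 (SD, n = 8), from 0.37 in 39103 to 0.85 in 39100. Fallen genes were below day 0 in every one, at -0.64 ± 0.29, from -0.19 in 39103 to -1 in 39100. In animal 39103, 71.1% of the risen genes were above day 0 and 60.3% of the fallen genes below it, whereas in 39098 these shares were 94.1% and 98.4%. Over all genes tested, 49% were above day 0 in 39103 and 53.9% in 39098. The animal with the largest root mean square over all genes therefore followed the genes of the other 7 the least, with each animal measured on its own sets. On the genes called with all 8 animals, 39103 again had the lowest shares in the called direction (87.1% and 81.5%). Its mean changes there, 0.598 and -0.499, were not the smallest. Leaving out 39103 raised the count of called genes from 2290 to 2791.

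**Figure D4:**
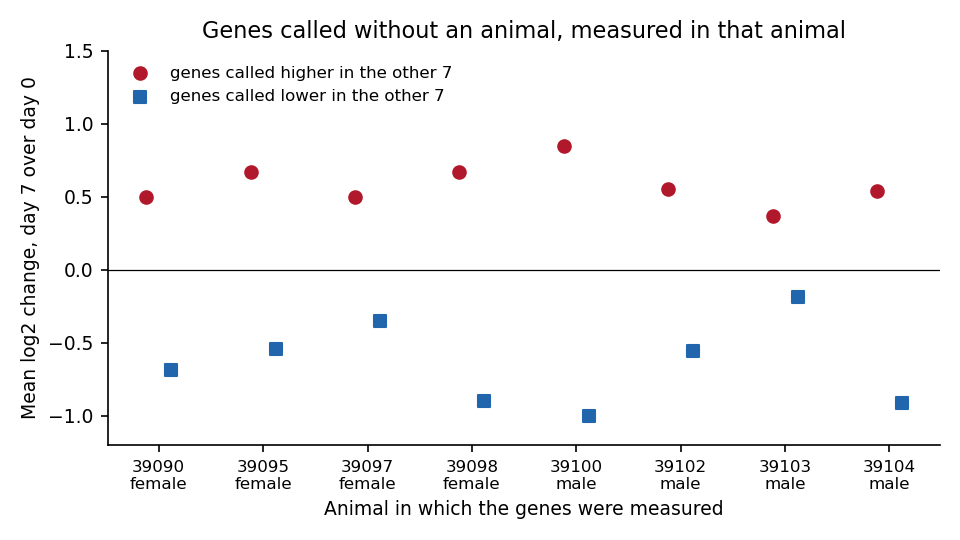
Mean log2 change from day 0 to day 7 (y axis) in each animal (x axis), over genes called higher (red circles) or lower (blue squares) in the other 7 animals. All red points lie above 0 and all blue points below it, closest to 0 in animal 39103 (0.37 and -0.19) and farthest in 39100 (0.85 and -1).

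Both sexes moved in the called direction, by mean change, for each of the 1136 and 1154 genes, which were called on all 8 animals. The median change of the risen genes was 0.50 in both sexes, and that of the fallen genes was -0.52 in females and -0.59 in males. Mean changes of the 4 females and the 4 males, which share no libraries, correlated across all genes at r = 0.54. The test of a sex-by-day difference called 0 genes in edgeR (0% of those tested). The smallest adjusted p was 0.23, and 582 genes had an unadjusted p under 0.05. DESeq2 called 28 genes, and limma voom called 0. With 4 animals of each sex, this does not show that the sexes responded alike.

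Spread between animals was somewhat wider on day 7. The median SD of a gene over the 8 animals was 0.397 log2 CPM on day 0 and 0.454 on day 7, and 64.5% of genes had the larger SD on day 7. Among fallen genes the median SD was 0.425 and 0.468, and among risen genes 0.312 and 0.342.

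The day 7 genes were followed through the other sampling days. All values against day 0 share the day 0 libraries, and day 7 itself chose the genes, so they are set side by side without a test. Over the 1136 risen genes the median log2 change was -0.0039 a day after the first dose and 0.26 by day 3. It was 0.13 a day after the second dose and 0.51 by day 7. A day after the third dose it was 0.14, and by day 10 it was 0.52. The last 3 samplings (days 14, 17 and 21) gave 0.46, 0.43 and 0.42, and with library totals alone 0.18, 0.53 and 0.50. For the 1154 fallen genes it was -0.12 a day after the first dose, -0.21 after the second and -0.097 after the third. By days 3, 7 and 10 it was -0.41, -0.57 and -0.52. Days 14, 17 and 21 gave -0.41, -0.54 and -0.56, and with library totals -0.68, -0.45 and -0.47. Days 10 and 14 mix run tags. On day 14 the mean change of the fallen genes was -0.52 to -1 in the 5 animals whose library carries the other tag, and -0.28 to 0.032 in the 3 with the shared tag (39102, 39103 and 39104), so tag and animal cannot be told apart there. On day 10 it was -0.49 to -0.70 in those 3, whose libraries then carry the other tag, and -0.47 to -1.1 in the other 5. Both groups thus lay farther from day 0 on days 3, 7 and 10, which lay 72 to 96 h after the latest dose, than on days 1, 4 and 8, which lay 24 h after it. This order depends on the scaling for the fallen genes. With library totals alone their median was -0.39 by day 3 and -0.42 on day 8, when the median of all genes was itself at -0.33. The risen genes kept the order with library totals, but their sign turned on days 4 and 8 (-0.015 and -0.18, beside all-gene medians of -0.18 and -0.33).

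**Figure D5:**
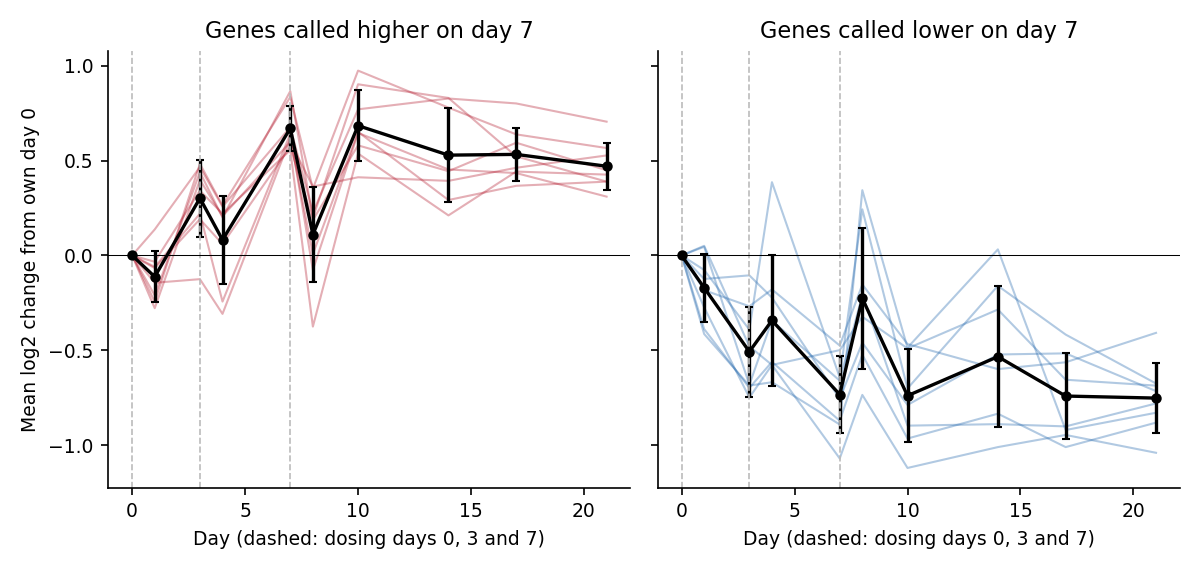
Mean log2 change from each animal's own day 0 (y axis) over genes called higher (left, red) and lower (right, blue) on day 7, by sampling day (x axis). Thin lines are the 8 animals, black points are their mean ± SD, dashed lines mark the dosing days, and both groups move back toward 0 on days 4 and 8 before standing near their day 7 values again on day 10, with TMM scaling (with library totals the fallen genes are no nearer to 0 on day 8 than on day 3).

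Intervals that use neither day 0 nor day 7 show the genes in libraries that did not choose them. From day 1 to day 3 the risen genes gained a median of 0.26 on the log2 scale (8 of 8 animals up) and the fallen ones moved by -0.29 (7 of 8 down), against -0.0027 over all genes. From day 3 to day 4, 24 h after the second dose, the medians were -0.14 (8 of 8 animals down) and 0.18 (6 of 8 up), against -0.018 over all genes. From day 8 to day 10 they were 0.37 (8 of 8 up) and -0.43 (8 of 8 down), against 0.037. Scaling bears on these values, since with library totals the median of all genes itself moved by -0.18 from day 3 to 4 and by 0.30 from day 8 to 10. The fallen genes then gave 0.011 (4 of 8 animals up) and -0.16, and the risen genes -0.30 and 0.64. With TMM scaling, the medians of both groups also moved toward day 0 with no dose in between. With library totals the median of the fallen genes did not. From day 10 to day 14 the medians were -0.086 (7 of 8 animals down) and 0.16 (7 of 8 up), against -0.042 over all genes, with a change of tag in every animal. With library totals they were -0.31 and -0.065 (3 of 8 animals up for the fallen genes), against -0.26 over all genes. With TMM scaling, the mean move of the fallen genes was 0.20 to 0.54 in the 3 animals going from the other to the shared tag. It was -0.13 to 0.27 in the 5 going the other way, so tag and animal cannot be told apart. From day 14 to day 17 the medians were -0.015 (4 of 8 down) and -0.14 (5 of 8 down), against 0.072 over all genes. With library totals both turned positive, at 0.35 and 0.20 beside 0.42. The mean move of the fallen genes with TMM scaling was -0.26 to -0.95 in the 3 animals with the shared tag on both days. In the 5 whose tag changed it was -0.17 to 0.066. From day 17 to day 21 the medians were -0.023 and -0.017, against -0.011 over all genes.

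Genes changed over 2-fold on day 7 were chosen by that size, and a difference between the courses of the 2 directions was not tested. The 189 genes that rose stood at a mean of -0.51 ± 0.33 against day 0 on day 1 (SD, n = 8), at 0.35 ± 0.38 by day 3, at -0.081 ± 0.35 a day after the second dose and at 1.5 ± 0.36 by day 7. A day after the third dose they were at 0.18 ± 0.52. They were at 1.5 ± 0.46 on day 10 and 0.83 ± 0.19 on day 21. The genes that fell were at -0.39 ± 0.39 on day 1, at -0.97 ± 0.46 by day 3, at -0.88 ± 0.64 a day after the second dose and at -1.5 ± 0.45 by day 7. They stood at -0.77 ± 0.60 on day 8 and at -1.6 ± 0.42 by day 10, and the last sampling gave -1.6 ± 0.35.

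Day 7 was tested directly against days 3, 10 and 21, and against no other day but day 0. Since day 0 cancels, day 7 against day 3 is the test of how the change 96 h after the second dose differs from that 72 h after the first. Day 7 exceeded day 3 for 66 genes and fell short of it for 25, 91 in all (0.567% of those tested, 0.411% and 0.156%). An unadjusted p under 0.05 was reached by 2054. Changes over 2-fold made up 46 of the 66 and 9 of the 25, with median log2 changes of 1.35 and -0.81. When genes needed a mean of at least 2 log2 CPM, 9 genes were called, 7 higher and 2 lower. All 4 named identifiers were among the 91, which their choice by the size of the day 7 change, in the same day 7 libraries, favours. With that minimum level ENSMFAG00000020302 was not called (adjusted p = 0.064, edgeR) and ENSMFAG00000037103 was not among the genes tested. The count of 91 was 3 without the animal block and 621 in DESeq2. Leaving out animal 39102 gave 12, 39100 gave 18, 39097 gave 19, 39095 gave 25, 39104 gave 37 and 39103 gave 365.

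Day 10, 72 h after the third dose, was set against day 7. No gene was called between the 2 days by edgeR (0% of those tested). The smallest adjusted p was 0.305, and 1663 genes had an unadjusted p under 0.05. DESeq2 called 139 genes and limma voom 23. The middle 50% of genes had log2 differences between -0.15 and 0.12, with a median SE of 0.14 per gene. The risen day 7 genes had a median difference of 0.013 and the fallen ones of 0.0079, though day 7 both chose these genes and enters the difference. Without animal 39103 edgeR called 62 genes and without 39097 it called 1. Among the 4 animals whose day 7 and day 10 libraries share 1 tag it called 189, of which 169 were higher on day 10. Among the 4 animals with no library over 40 M counts on these days it called 0 (547 at an unadjusted p under 0.05). A missed threshold does not show that days 7 and 10 were alike.

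Day 21 exceeded day 7 for 64 genes and fell short of it for 83, 147 in all (0.916% of those tested, 0.399% and 0.517%). An unadjusted p under 0.05 was reached by 2914. The 1136 genes risen on day 7 had a median difference of -0.12 on day 21 and were lower in 7 of 8 animals by their mean, while for the 1154 fallen genes the median was -0.022. For genes risen over 2-fold on day 7 the mean difference was -0.67 ± 0.49 (SD, n = 8), and for those fallen over 2-fold it was -0.11 ± 0.16. Day 7 chose all these genes and also enters the difference. This favours a move back toward day 0, most in the sets chosen by size, and its part in these values was not tested. The count of 147 was 2 without the animal block and 960 in DESeq2. Leaving out animal 39090 gave 0 (2221 at an unadjusted p under 0.05), 39102 gave 11, 39097 gave 20, 39095 gave 24, 39100 gave 80 and 39103 gave 295.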

How the data were processed

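The authors deposited 2 tables of gene counts (whole numbers of reads per gene, not normalized) for the same 80 libraries, and the one with 38550 genes was used. The second, with 35432 genes under other identifiers, served as an alternative. The aligner, the counter, the build and whether strand was used: not given in the sources used here. How reads of near-identical genes were split is therefore unknown. RNA was isolated with an RNAdvance Blood kit and libraries made with KAPA HyperPrep reagents, per the labels' protocols. The low-count filter (filterByExpr, groups set by day, all 80 libraries) left 16054 genes (41.6%), which were scaled by trimmed means of M-values (TMM). Each pair of days was fitted alone with edgeR 4.0.16 in R 4.3.3 (glmQLFit, glmQLFTest, animal as a block), and the sexes with a day-by-sex term. SE is the log2 fold change over the root of F. Benjamini-Hochberg adjustment ran over all genes, with calls at an adjusted p under 0.05. Log2 CPM used a prior count of 2. DESeq2 1.42.0 and limma 3.58.1 (voom with sample weights) were alternatives. The fits were tested on simulated data.

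Animals are paired by their number in the labels. Deviations of libraries from their day's mean correlated across genes at r = 0.37 to 0.63 between the day 0 and day 7 libraries of the same animal, and at a median of -0.07 between different animals. No 2 libraries of a day agreed within counting noise (smallest chi-square per degree of freedom 27.7). Named identifiers are the 2 largest rises and the 2 largest falls on day 7 among called genes with a mean of at least 2 log2 CPM and 1 direction in 8 of 8 animals. The 14 gene lists drawn up by symbol were not run, since 0 identifiers of either table matched the RefSeq gene table of the species. The comparison, the lists and the tests were chosen with earlier results of these data known.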

Additional observations from a re-analysis of the deposited data

Results flagged for a closer look

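Among 21 groups of 8 values examined for a single sample far from the rest, 2 stood out, and chance gives about 1 in 20. The day 7 library of animal 39097 held 51.4 M counts, against 25.4 M for the next deepest of that day. The day 0 library of animal 39090 held 30.3 M, against 24.9 M for the next. Without animal 39097 the day 7 count of called genes was 1904, and without 39090 it was 1636. No level or change of a named identifier was apart from the rest in this way.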

How the results depend on the processing

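For day 7 against day 0, 16 of 20 alternatives stayed within 1.5 times 2290 genes. Without the replicate block, which ignores the pairing, 622 genes were called, and leaving out 1 animal at a time gave 1217 to 2791. The named identifiers kept direction and call against day 0 in all 19 settings run for each, which the rule that chose them favours. The count of 91 for day 7 against day 3 was 3 without the block, 621 in DESeq2, 347 in limma voom, 57 with library totals, 382 without the low-count filter, 9 at a mean of at least 2 log2 CPM, 212 in 1 fit over all 80 libraries, 19 without the animal with a library over 40 M counts, 25 within the shared tag and 12 to 365 without 1 animal. The count of 0 for day 10 against day 7 was 139 in DESeq2, 23 in limma voom and 121 without the low-count filter. It was 189 within the shared tag, 0 among the 4 animals with no library over 40 M counts and 0 to 62 without 1 animal. For day 21 against day 7, 147 became 2 without the block, 960 in DESeq2, 463 in limma voom, 561 without the filter, 20 without the animal with a library over 40 M counts, 24 within the shared tag and 0 to 295 without 1 animal. For the sex-by-day test, 0 became 28 in DESeq2 and 22 without the filter. The change in share was 0.22 percentage points for the 10 most abundant genes, -0.23 for 100 and -1.4 for 1000. The causes were not tested. Without animal 39095 and within the shared tag are the same fit for days 0, 3, 7 and 21, so tag and animal cannot be told apart. Without animal 39097 and without the animal with a library over 40 M counts are likewise the same fit for these days. The tallies of alternatives count these fits under each name. Abundance quintiles under other scalings, courses with library totals or split by tag, and named identifiers in the comparisons with days 3 and 21 were examined after the data had been seen.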
